A study of Mus musculus with 47 samples.

Results

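Interferon-stimulated genes are genes whose transcription rises when interferons bind their receptors, and 33 of them were followed here in mouse liver. They were taken by gene symbol from the array annotation, each by the probe with the highest mean signal. By the interferon best known to induce them they were sorted into 22 type I antiviral genes, 9 interferon gamma-type genes and 2 genes that respond to both (*Cxcl10* and *Irf1*). All 33 were among the 21741 genes tested, and each was well above background on 47 of 47 arrays with none saturated. Liver RNA came from male and female C57Bl/6J littermates, 6 months old, bred from *Pxr*+/- parents and either *Pxr*+/+ or *Pxr*-/-. The *Pxr*-/- mice lacked the pregnane X receptor (PXR), a nuclear receptor for xenobiotics, in the whole body. ATB mice had ampicillin and neomycin at 1 g/L each and vancomycin at 0.5 g/L in their water for 2 weeks, which depletes gut bacteria, and controls drank tap water. All were killed at ZT6, that is 6 h after lights on. Each of the 8 groups held 6 mice, 1 array per mouse, except the *Pxr*-/- control males with 5. The mice of a group came from 2 cages. The labels do not tie mice to cages, so cage could not enter the model, and mice of 1 cage are not fully independent.

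Interferons are secreted by cells that sense viral or bacterial nucleic acids and other microbial products. Type I interferons (the alpha and beta forms) act through a receptor built from IFNAR1 and IFNAR2 and activate a complex that holds STAT2 and IRF9 and binds the interferon-stimulated response element (ISRE). Interferon gamma, made mainly by T and natural killer (NK) cells, acts through IFNGR1 and IFNGR2 and leads to binding at the gamma-activated site (GAS). The antiviral genes encode RNA sensors, proteins that block translation or replication and the factors that amplify the response. The interferon gamma-type genes encode GTPases that act on vacuoles holding pathogens, parts of the antigen processing machinery and a chemokine for T cells. In the liver these genes are read by hepatocytes, Kupffer cells (the resident macrophages), endothelial cells and lymphocytes, and in RNA of whole tissue fewer cells of a type and less RNA per cell cannot be told apart.

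The promoters of the 3 genes of each class with the largest sex difference are shown here, among those listed in the RefSeq table used (build GRCm38.p6), because these genes carry the main pattern described further on. Each sequence is the 250 bases before the transcription start, 5′ to 3′ on the gene's strand, and capitals mark matches to the ISRE core GAAANNGAAA or its other strand TTTCNNTTTC, and to the GAS core TTCNNNGAA, which reads the same on both strands. Overlapping matches were counted singly. *Ifit1* (chr19:34640639-34640888, plus strand) holds 2 ISRE matches, *Ifi44* (chr3:151749911-151750160, minus strand) holds 0 and *Ifit3* (chr19:34583279-34583528, plus strand) holds 2. *Gbp3* (chr3:142559794-142560043, plus strand, the one of its 2 listed starts with more matches) holds 2 that overlap, *Igtp* (chr11:58199306-58199555, plus strand) holds 1 ISRE and 1 GAS match, and *Gbp2* (chr3:142620413-142620662, plus strand) holds 1 ISRE match.
Ifit1: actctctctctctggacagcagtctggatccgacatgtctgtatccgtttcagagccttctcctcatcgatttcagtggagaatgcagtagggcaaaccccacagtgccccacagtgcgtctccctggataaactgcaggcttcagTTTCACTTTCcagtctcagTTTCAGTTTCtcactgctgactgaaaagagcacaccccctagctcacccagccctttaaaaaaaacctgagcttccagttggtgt
Ifi44: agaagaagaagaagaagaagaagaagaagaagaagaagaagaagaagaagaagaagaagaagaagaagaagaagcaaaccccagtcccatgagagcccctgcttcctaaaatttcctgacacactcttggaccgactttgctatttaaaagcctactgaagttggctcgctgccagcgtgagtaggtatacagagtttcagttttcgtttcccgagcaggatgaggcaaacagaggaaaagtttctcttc
Ifit3: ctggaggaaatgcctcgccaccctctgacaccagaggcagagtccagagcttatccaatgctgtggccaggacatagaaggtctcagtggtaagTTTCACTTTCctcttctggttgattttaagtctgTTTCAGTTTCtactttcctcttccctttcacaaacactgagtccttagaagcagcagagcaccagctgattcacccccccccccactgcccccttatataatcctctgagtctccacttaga
Gbp3: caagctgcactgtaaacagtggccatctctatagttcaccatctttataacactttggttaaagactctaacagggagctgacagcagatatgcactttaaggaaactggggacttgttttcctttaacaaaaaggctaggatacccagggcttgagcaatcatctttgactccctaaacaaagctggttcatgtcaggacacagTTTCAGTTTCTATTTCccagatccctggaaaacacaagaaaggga
Igtp: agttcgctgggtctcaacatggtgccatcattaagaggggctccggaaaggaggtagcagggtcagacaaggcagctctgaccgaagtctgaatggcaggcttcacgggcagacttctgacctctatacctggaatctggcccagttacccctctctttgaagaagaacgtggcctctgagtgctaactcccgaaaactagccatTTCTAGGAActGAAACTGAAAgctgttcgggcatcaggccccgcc
Gbp2: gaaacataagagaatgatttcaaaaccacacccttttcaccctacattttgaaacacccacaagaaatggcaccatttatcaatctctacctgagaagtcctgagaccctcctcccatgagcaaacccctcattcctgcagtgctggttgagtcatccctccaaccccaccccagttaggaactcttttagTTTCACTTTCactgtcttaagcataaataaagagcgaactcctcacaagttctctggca
Of the 33 genes, 27 had a promoter in the table. An ISRE core stood in 8 of 17 type I antiviral genes, in 4 of 8 interferon gamma-type genes and in 3.46% of all 27025 genes listed. A GAS core stood in 3 of 17, in 2 of 8 and in 8.13%, respectively. A match says only that these letters stand in this window. *Usp18*, *Ifi27l2a*, *Dhx58*, *Rtp4*, *Zbp1* and *Iigp1* were not in the table.

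The signal in the files is the median brightness of a spot, given below as log2 after removal of the wash batch and CrossNorm normalization, which keeps shifts of whole arrays between groups. Values are comparable between mice for 1 gene, not between genes. No background (15 to 21 by array) was subtracted, so an order of genes by the size of their difference holds for this scale only. A gene was called when limma gave a false discovery rate (FDR, Benjamini-Hochberg over all 32979 tested probes) of 0.05 or less and the fold change was above 1.2. Over the 47 arrays, between 31087 and 34477 probes were well above background. The 75th percentile of the intensity, a measure of overall brightness, was 404 to 459 in *Pxr*+/+ control females and 309.5 to 388.5 in *Pxr*+/+ control males, so that these groups did not overlap. *Nr1i2*, which encodes PXR, was not significantly lower in *Pxr*-/- mice by its probe (log2 difference -0.28 ± 0.18 (SE), adjusted p = 0.997 in control males and -0.29 ± 0.18, adjusted p = 0.329 in control females, limma), and whether the probe lies in the deleted part is not given. *Cyp2c55*, a cytochrome P450 gene that the paper describes as a PXR target, was higher in *Pxr*-/- mice with no overlap. The difference was 2.36 ± 0.26 in control males and 2.43 ± 0.25 in control females. In control females it was the largest rise among all genes tested, so it is no independent check of the genotype labels. *Xist* was well above background in all 24 females and in 0 of 23 males.

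To see how the genes differed between the sexes, males were compared with females of the same genotype and treatment. In *Pxr*+/+ controls, all 33 genes were called lower in males, against 29.9% of all genes tested, and for 28 of them no male overlapped any female, against 16% of all genes. The median log2 difference, male less female, was -1.19 over the 33 genes and -0.20 over all genes, so the genes lay 0.99 lower than the typical gene. The 22 type I antiviral genes had a median of -1.21 and the 9 interferon gamma-type genes a median of -1.0, and their ranges covered each other (-1.95 to -0.55 and -2.09 to -0.78). The shift was also measured with another scaling. When all 47 arrays were quantile normalized, the median over all genes was 0.01 and 8.38% of genes were called lower, and 32 of the 33 genes were still called lower with a median of -0.93. It was also found within each of the 3 wash batches, where the median over the genes was -1.18, -1.29 and -1.43.

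**Figure D1:**
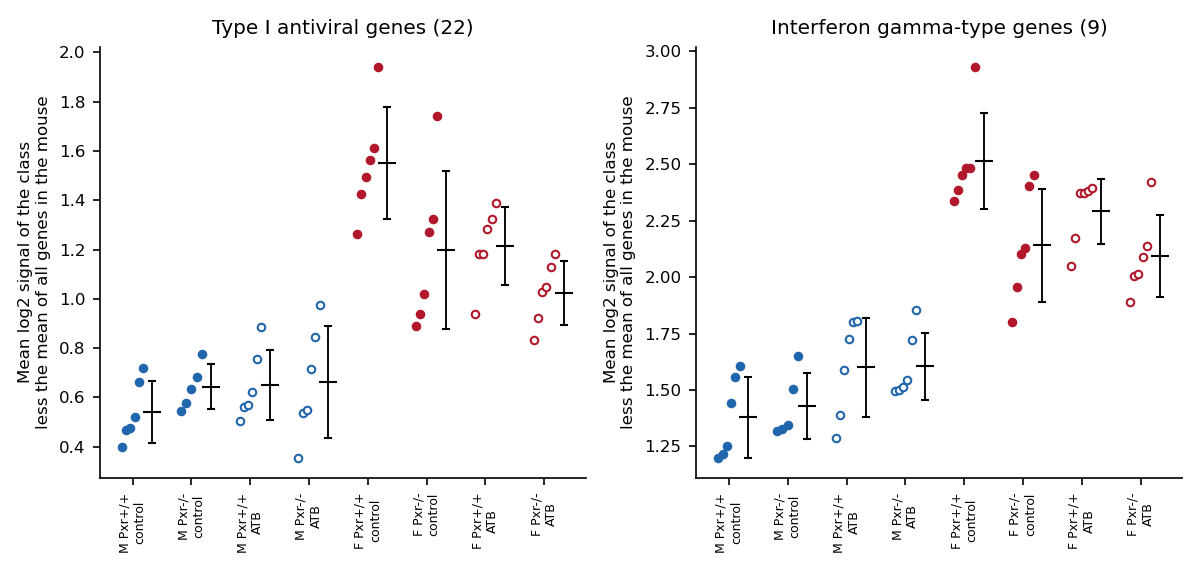
Mean log2 signal of the 22 type I antiviral genes (left) and the 9 interferon gamma-type genes (right) by mouse and group, relative to the average of all tested genes on that array (blue males, red females, filled controls, open ATB, bars mean ± SD). The mean of *Pxr*+/+ control females is highest in both panels, and mice of other female groups lie within their range. For type I genes *Pxr*+/+ control females run from 1.27 to 1.94 and *Pxr*+/+ control males from 0.40 to 0.72.

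Among the sensors of RNA and DNA, *Zbp1*, which encodes a sensor of Z-form nucleic acid that can trigger cell death, had the largest difference. Its log2 signal ran from 8.50 to 9.97 (median 9.02) in *Pxr*+/+ control females and from 6.90 to 7.29 (median 7.23) in the males, with every male below every female. The difference was -1.91 ± 0.21 (SE), or 3.77-fold (adjusted p = 2.58e-09, limma, n = 6 and 6). The RIG-I-like receptor genes were lower in males by less. *Ddx58* (RIG-I) differed by -0.70, *Ifih1* (MDA5) by -0.81 and *Dhx58* (LGP2, which regulates the other two) by -0.76. *Ddx60*, a helicase gene reported to assist them, differed by -1.0. None of these overlapped between the sexes.

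The genes of the factors that carry the signal were lower in males by similar amounts. *Irf7*, the factor that amplifies type I interferon synthesis, differed by -1.05, with 12.93 to 13.74 in females and 12.01 to 12.59 in males. *Irf9* and *Stat2*, which encode parts of the complex that binds the ISRE, differed by -0.84 and -0.75. *Irf1*, which responds to both interferons, differed by -0.83, and here some males lay within the female range. *Usp18*, whose product removes ISG15 from proteins and dampens the type I receptor, differed by -1.85 ± 0.19 (3.61-fold, adjusted p = 2.41e-10). Its signal ran from 9.30 to 10.35 (median 10.06) in females and from 7.90 to 8.30 (median 8.06) in males, with no overlap.

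The antiviral effectors spread most widely. *Ifit1*, which encodes a protein that binds viral RNA and blocks its translation, ran from 8.20 to 9.27 (median 8.59) in *Pxr*+/+ control females and from 6.44 to 7.12 (median 6.70) in males. The difference was -1.95 ± 0.22 (3.85-fold, adjusted p = 5.19e-09). Its neighbours *Ifit3* and *Ifit2* differed by -1.61 and -0.92, so genes of 1 family differed in size. *Isg15*, the ubiquitin-like modifier, differed by -1.57 with 12.19 to 13.39 in females and 10.86 to 11.52 in males. The oligoadenylate synthetase genes were not alike. *Oas1a*, which activates the RNA-degrading enzyme RNase L, differed by -1.60 and *Oasl2* by -1.55, whereas *Oasl1* differed by -0.67 (adjusted p = 0.03) with overlapping groups. The call of *Oasl1* was lost on leaving out 1 mouse in 7 of 12 cases (highest adjusted p = 0.119). *Ifi44* differed by -1.86, *Ifi27l2a* by -1.59, *Xaf1*, which promotes cell death, by -1.29, *Rtp4* by -1.23 and *Rsad2*, which encodes viperin, by -1.19. The smallest difference was that of *Bst2*, which encodes tetherin, an inhibitor of virus release (-0.55 ± 0.11, adjusted p = 0.000256).

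Among the interferon gamma-type genes, the GTPases *Gbp3* and *Igtp* had the largest differences of all 33 on this scale. *Gbp3* (probe at chr3:142236072-142236131 of the mm9 build, as the array files give it) ran from 9.39 to 10.49 (median 9.85) in *Pxr*+/+ control females and from 7.61 to 8.09 (median 7.78) in the males. The difference was -2.09 ± 0.19 (4.24-fold, adjusted p = 6.31e-12). *Igtp* (chr11:58020927-58020986) ran from 12.54 to 13.48 (median 13.02) in females and from 10.36 to 11.21 (median 10.96) in males, a difference of -2.06 ± 0.19 (4.17-fold, adjusted p = 2.68e-11). In both genes the lowest female stood more than 1 log2 unit above the highest male. *Gbp2* followed with -1.87, while the immunity-related GTPases *Irgm1* and *Iigp1* differed by -0.92 and -0.78. *Psmb8* and *Psmb9*, subunits of the immunoproteasome, differed by -1.0 and -0.91, and *Tap1*, the peptide transporter for antigen presentation, by -0.81. The chemokine genes *Cxcl9* and *Cxcl10*, whose products attract activated T cells through CXCR3, differed by -1.82 ± 0.25 and -1.62 ± 0.23 (3.52-fold and 3.07-fold). Several of these genes, such as *Oas1a*, *Ifit3*, *Gbp2*, *Gbp3* and *Iigp1*, belong to families of similar sequence, and whether their probes also bind relatives was not tested. For 14 of the genes, 17 further probes were tested, and all 17 were called lower in males as well. The sizes depended on the probe. Smaller differences were given by those of *Ifi44* (-0.67), *Rsad2* (-0.62), *Tap1* (-0.45), *Ifih1* (-0.38), *Stat2* (-0.36) and others. Those of *Irf7*, *Oasl1*, *Ddx60* and *Zbp1* and a probe of *Irgm1* gave slightly larger ones.

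**Figure D2:**
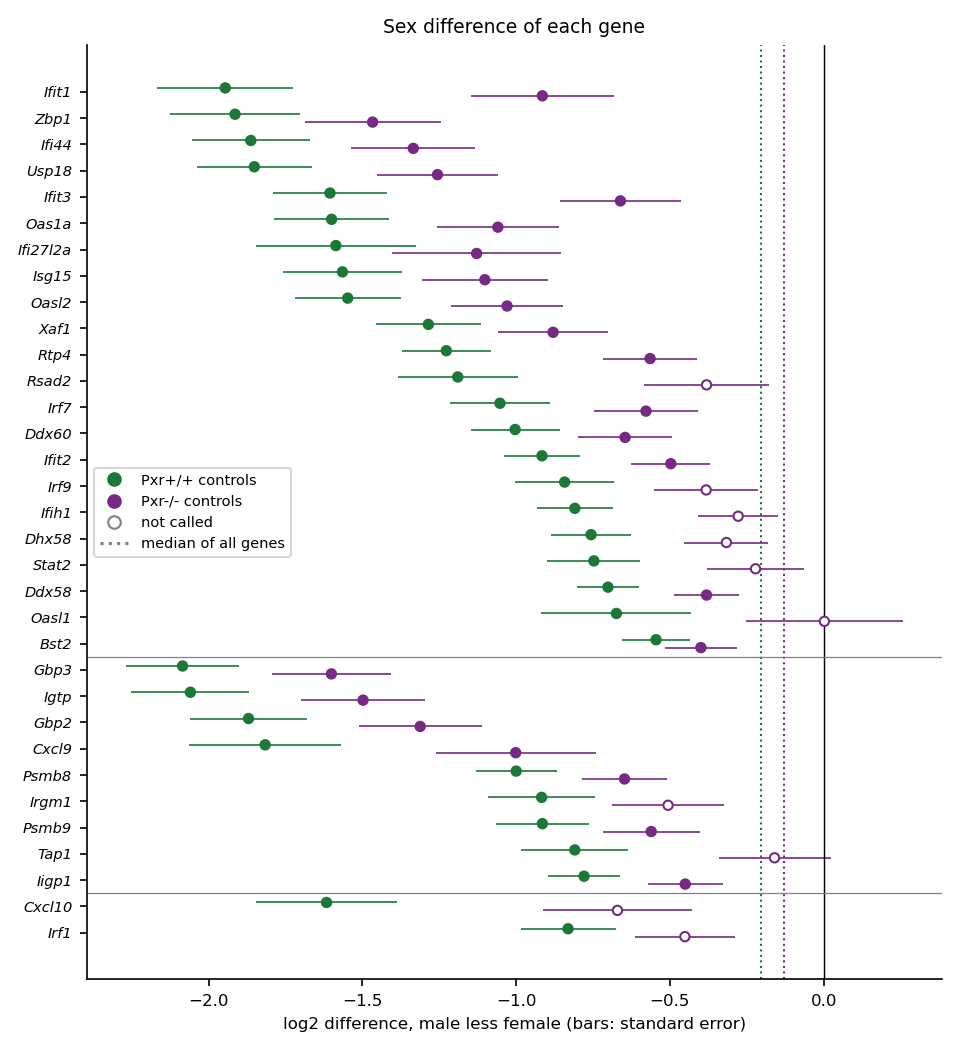
Log2 difference, male less female, of each of the 33 genes in *Pxr*+/+ controls (green) and *Pxr*-/- controls (purple), with standard errors. Horizontal lines part type I antiviral, interferon gamma-type and shared genes, filled points were called, open points were not, and dotted lines mark the median of all genes (-0.20 and -0.13). All green points are filled, and the purple points lie to the right of the green ones, with 23 filled.

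The sex difference was also present without PXR and after ATB, with fewer genes called. In *Pxr*-/- controls 23 of the 33 genes were called lower in males (13.6% of all genes), 12 of them without overlap (5.73%), with a median of -0.65 against -0.13 over all genes. In *Pxr*+/+ ATB mice 24 were called lower (9.03% of all genes), 13 without overlap (4.40%), with a median of -0.65 against -0.04. In *Pxr*-/- ATB mice 22 were called lower (23.2% of all genes), 10 without overlap (8.76%), with a median of -0.47 against -0.17. None of the 33 genes was called higher in males in any of these comparisons. Of the 17 further probes, 4, 4 and 6 were called lower in males in the same order. Type I antiviral and interferon gamma-type genes gave medians of -0.61 and -0.65 in *Pxr*-/- controls, -0.61 and -0.65 in *Pxr*+/+ ATB mice, and -0.50 and -0.48 in *Pxr*-/- ATB mice. The *Pxr*-/- ATB comparison fell to 10 calls with quantile normalization (6.35% of all genes called lower). The *Pxr*-/- control comparison fell to 14 when only its own 2 groups were fitted (5.71% of all genes called lower).

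The 6 genes *Usp18*, *Zbp1*, *Ifi44*, *Gbp2*, *Gbp3* and *Igtp* were called without overlap of the sexes in all 4 comparisons. The share of all genes that met this in all 4 comparisons was not counted. Whether these 6 are more than among other genes is therefore not known. *Gbp3* differed by -1.60 in *Pxr*-/- controls, -1.49 in *Pxr*+/+ ATB and -1.26 in *Pxr*-/- ATB mice. The 5 *Pxr*-/- control males had 8.06, 7.65, 7.96, 7.90 and 7.66 for *Gbp3*, where the 6 females ran from 9.01 to 10.02 (median 9.41). All 5 males thus lay below the lowest female. *Ifit1* differed by -0.91 in *Pxr*-/- controls, where the males had 7.44, 6.94, 7.27, 7.09 and 7.22 and the females ran from 7.29 to 9.08 (median 8.10), so the highest male overlapped the lowest female. At the other end, *Oasl1* differed by 0.00 and *Tap1* by -0.16 in *Pxr*-/- controls (adjusted p = 0.996 and 0.586), and neither was called in either ATB comparison.

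**Figure D3:**
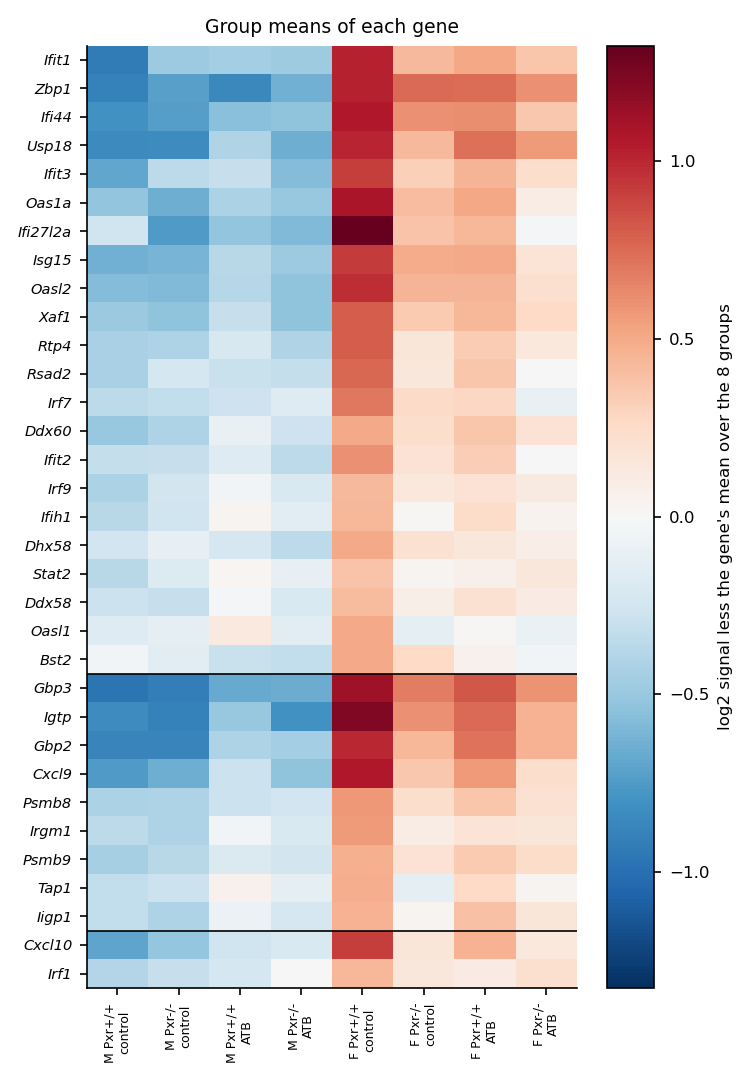
Mean log2 signal of each gene (rows, italics) in each of the 8 groups (columns), less the mean of that gene over the 8 groups, from blue (lower) to red (higher). Horizontal lines part type I antiviral, interferon gamma-type and shared genes, and the *Pxr*+/+ control females form the reddest column.

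Next, the effect of PXR deletion was examined within each sex and treatment. In control females, all 33 genes had a lower mean in *Pxr*-/- than in *Pxr*+/+ mice, as had 17541 of all 21741 genes, and 7 were called, against 2.98% of all genes called lower. None of the 33 was free of overlap between the genotypes (1.64% of all genes were lower without overlap), and 28 had an unadjusted p below 0.05, against 4663 of all genes. The median log2 difference, *Pxr*-/- less *Pxr*+/+, was -0.45 over the 33 genes, -0.45 over type I antiviral genes, -0.47 over interferon gamma-type genes and -0.12 over all genes. In control males none of the 33 was called (0.189% of all genes in either direction). None had an unadjusted p below 0.05, against 1125 of all genes, and the median was 0.04 against -0.04 over all genes. Among ATB mice none was called in males (0.888% of all genes) or in females (0.207%). An unadjusted p below 0.05 was found for 0 genes in males, against 4981 of all genes, and for 3 in females, against 1129. The median in males was -0.13, the same as over all genes (-0.13), and in females it was -0.20 against -0.0007.

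The called genes were 2 receptors of viral RNA, 3 antiviral effectors and 2 interferon gamma-type genes. *Rtp4*, whose product is reported to restrict some RNA viruses, ran from 11.60 to 12.17 (median 11.83) in *Pxr*+/+ control females and from 10.63 to 11.63 (median 11.22) in *Pxr*-/- control females. Its difference was -0.65 ± 0.145 (SE; 1.56-fold, adjusted p = 0.0122, limma), with only the top of the *Pxr*-/- range inside that of *Pxr*+/+ mice. *Ifi27l2a*, which encodes a small interferon-induced protein, ran from 11.67 to 13.10 (median 12.63) and from 10.91 to 12.28 (median 11.60), a difference of -0.95 ± 0.26 (1.93-fold, adjusted p = 0.0362). *Oas1a* ran from 10.97 to 11.58 (median 11.50) and from 10.34 to 11.25 (median 10.72), a difference of -0.67 ± 0.19 (adjusted p = 0.0415). In each of these genes the *Pxr*-/- median lay below every *Pxr*+/+ mouse, while the highest *Pxr*-/- mice overlapped. *Ifih1* differed by -0.43 (adjusted p = 0.0467), *Ddx58* by -0.35 (adjusted p = 0.0493), *Iigp1* by -0.42 (adjusted p = 0.0388) and *Tap1* by -0.61 (adjusted p = 0.0439). *Cxcl10* had a larger difference than most of them, -0.76 ± 0.23, and was not called (adjusted p = 0.0554). All 17 further probes had lower means as well, but 14 of them were not called. Among these were the further probes of *Ifih1* (-0.25), *Ddx58* (-0.20, -0.14 and -0.11), *Iigp1* (-0.33) and *Tap1* (-0.38). The 3 called belong to *Irf7* (-0.62) and *Irgm1* (-0.57 and -0.61), which were not called by their main probes.

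Most of these calls lay close to the threshold. The number of called genes was 1, *Rtp4*, with quantile normalization (log2 difference -0.53, adjusted p = 0.0206, with 0.626% of all genes called lower). It was 0 when only the 2 groups were fitted (0.557% of all genes called lower). Leaving out 1 mouse at a time gave 0 (without *Pxr*-/- replicate 5) to 18 genes (without *Pxr*-/- replicate 3). It gave 9 without *Pxr*-/- replicate 1 or 4, 1 without *Pxr*-/- replicate 2 or 6, 11, 1, 4, 1, 2 and 2 without *Pxr*+/+ replicates 1 to 6 in turn. The share of all genes called was not counted in these fits. The median over the 33 genes was -0.31, -0.63 and -0.54 within the 3 wash batches.

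**Figure D4:**
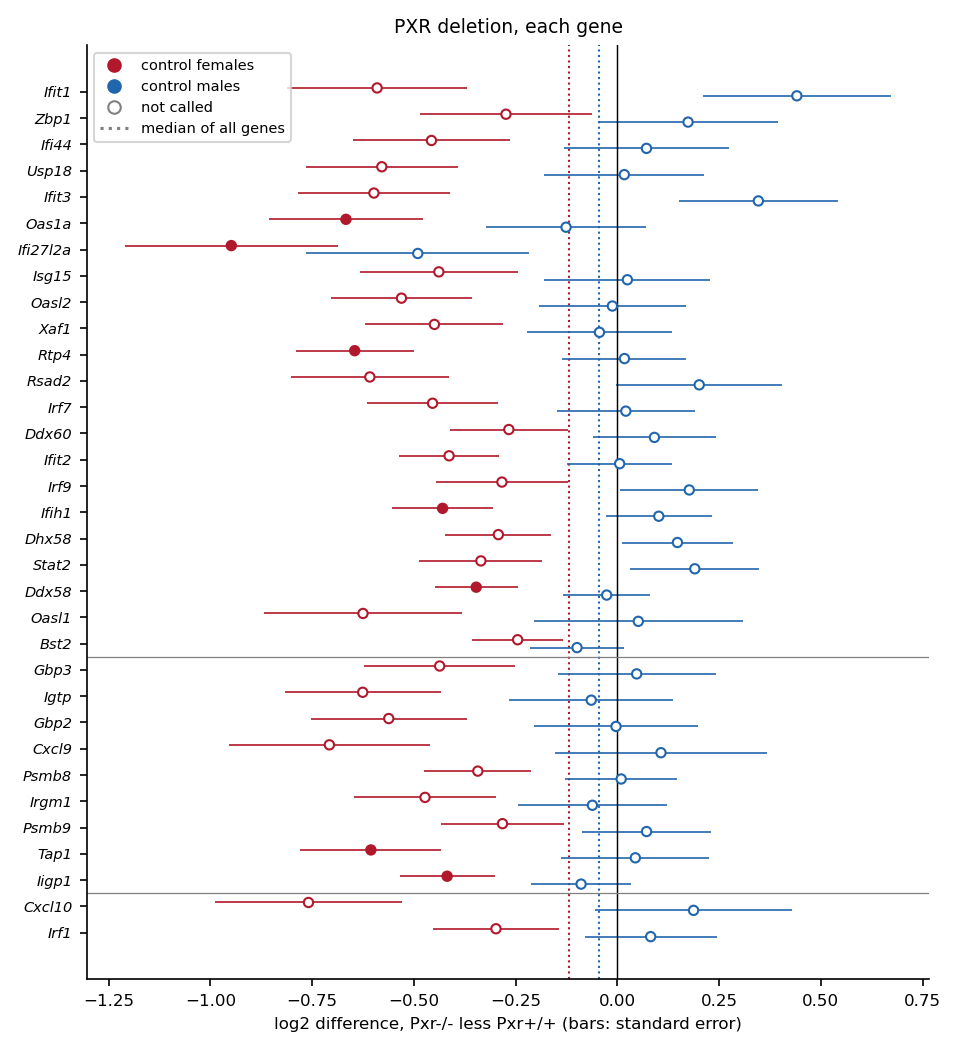
Log2 difference, *Pxr*-/- less *Pxr*+/+, of each gene in control females (red) and control males (blue), with standard errors. Horizontal lines part type I antiviral, interferon gamma-type and shared genes, filled points were called, and dotted lines mark the median of all genes (-0.12 and -0.04). All red points lie below 0 with 7 filled, and no blue point is filled.

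Whether PXR deletion acted differently in the 2 sexes was tested as a contrast of both effects. None of the 33 genes was called (0.0230% of all genes were), 15 had an unadjusted p below 0.05 against 968 of 21741 genes, and all 33 differences had the same sign, with the effect in females below that in males (median -0.48, over all genes -0.08). The largest was that of *Ifit1*, -1.03, whose mean was 8.70 ± 0.44 (SD) in *Pxr*+/+ and 8.11 ± 0.64 in *Pxr*-/- control females, and 6.75 ± 0.29 and 7.19 ± 0.19 in the males (n = 6, 6, 6 and 5). A difference of the effect between the sexes was therefore not shown for any single gene.

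ATB left the genes without a call. In *Pxr*+/+ females all 33 had lower means after ATB, as had 14793 of 21741 genes. Of the 33, 0 were called (0.0138% of all genes were), 19 had an unadjusted p below 0.05 against 2323 of all genes, and the median was -0.36 against -0.06 over all genes. *Bst2* came nearest, with -0.45 ± 0.11 (adjusted p = 0.174), and *Ifi27l2a* had the largest difference, -0.88 ± 0.26 (adjusted p = 0.241), from 12.54 ± 0.49 to 11.66 ± 0.51. In the same females all 12 macrophage markers and all 6 neutrophil markers had lower means after ATB (medians -0.60 and -0.57), with 0 called. All 7 endothelial and all 4 B cell markers had lower means too (medians -0.09 and -0.10). The same held for 6 of 10 T and NK cell markers, 2 of 5 plasmacytoid dendritic cell markers and 4 of 8 hepatocyte markers, again with 0 called. The part of these cells in the values of the 33 genes was not tested. In *Pxr*+/+ males 31 of the 33 had higher means after ATB, as had 16645 of 21741 genes. Of the 33, 0 were called (1.04% of all genes were), 12 had an unadjusted p below 0.05 (1 of them lower, against 4059 of all genes in either direction), and the median was 0.26 against 0.10 over all genes. *Ifih1* had 0.41 ± 0.12 (adjusted p = 0.0821), from a mean of 9.33 ± 0.20 to 9.74 ± 0.10. *Bst2* and *Ifi27l2a* alone had lower means there, each with -0.26. *Bst2* was called lower with 4 other ways of scaling, among them quantile normalization (-0.38, adjusted p = 0.0136). Leaving out 1 mouse gave 1 called gene in *Pxr*+/+ males (without control replicate 5) and 2 in *Pxr*+/+ females (without control replicate 1). In *Pxr*-/- mice 0 genes were called in males (0.110% of all genes) or females (0.0276%). There 1 and 2 had an unadjusted p below 0.05, against 1560 and 2536 of all genes. The medians were 0.12 and -0.07, against 0.02 and 0.05 over all genes.

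The contrast of the ATB effects in *Pxr*+/+ females and males again gave 0 called genes (0.0414% of all genes). All 33 had a lower value in females, with a median of -0.62 against -0.16 over all genes, and 26 had an unadjusted p below 0.05 against 2811 of 21741 genes. *Ifih1* was lowest in adjusted p, at 0.237 (-0.61 ± 0.18). The contrasts of the ATB effect between genotypes gave 0 called genes in males (0.0184% of all genes) and in females (0%). In each, 1 gene had an unadjusted p below 0.05, against 1099 and 2047 of all genes. The medians were -0.16 and 0.26, against -0.08 and 0.13 over all genes. The *Pxr*+/+ control females enter the sex, PXR and ATB comparisons in which the genes were lower, so these results share 6 mice, and their values stand side by side here rather than as separate support for one another.

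**Figure D5:**
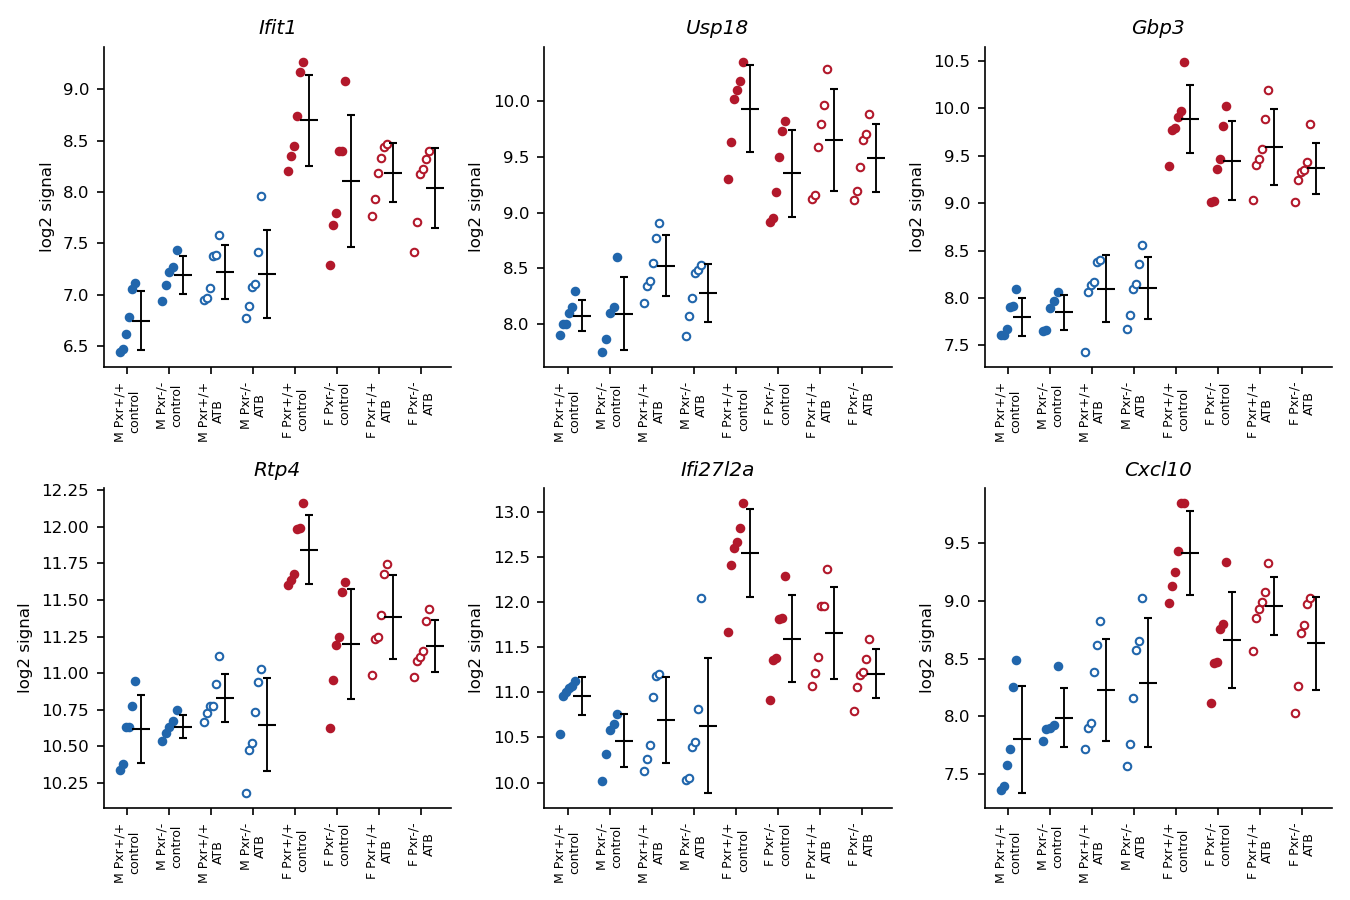
Log2 signal in each mouse of *Ifit1*, *Usp18* and *Gbp3* (top) and *Rtp4*, *Ifi27l2a* and *Cxcl10* (bottom) by group (blue males, red females, filled controls, open ATB, bars mean ± SD). In the top row males and females of *Pxr*+/+ controls lie apart, and in the bottom row *Pxr*-/- control females reach down into the range of the *Pxr*+/+ control males for all 3 genes.

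Taking each class as its mean less the mean of all genes in the same mouse, the female groups had the same order in both classes. For type I antiviral genes the level was 1.55 ± 0.23 (SD) in *Pxr*+/+ control females, 1.22 ± 0.16 in *Pxr*+/+ ATB females, 1.2 ± 0.32 in *Pxr*-/- control females and 1.02 ± 0.13 in *Pxr*-/- ATB females. Males lay between 0.54 ± 0.12 (*Pxr*+/+ controls) and 0.66 ± 0.23 (*Pxr*-/- ATB), and the male groups overlapped. For interferon gamma-type genes the female levels were 2.51 ± 0.21, 2.29 ± 0.15, 2.14 ± 0.25 and 2.09 ± 0.18 in the same order, and the male levels ran from 1.38 ± 0.18 (*Pxr*+/+ controls) to 1.60 ± 0.15 (*Pxr*-/- ATB). Neighbouring female groups overlapped in both classes. Within groups, the genes also varied together between mice. With group means removed, the correlation over 47 mice had a median of 0.62 over the 231 pairs of type I genes, 0.57 over the 36 pairs of interferon gamma-type genes and 0.56 over the 198 pairs between the classes. Genes of 1 mouse share an array and its brightness, and these correlations are a description.

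The other genes of the pathway were read from lists by role. Of the interferon ligand genes, *Ifna1* and *Ifnl3* were well above background on 47 of 47 arrays, *Ifna2* on 29 and *Ifna4* and *Ifnb1* on 0. *Ifna1* and *Ifnl3* were not called between the sexes in *Pxr*+/+ controls (-0.08 and -0.15). Their signal was low, with means of 5.48 and 5.42 in these males and 5.57 for each in the females. *Ifna2* was not called either. It was well above background on 3 of 6 of these males and 5 of 6 females, so no size is given for its difference. *Ifng* was well above background on 22 arrays, among them those of 1 of 6 *Pxr*+/+ control males and 5 of 6 females, so no size is given for its difference. Against the 29.9% of all genes called lower in *Pxr*+/+ control males, 3 of the 6 receptor genes were called. Of these genes, *Ifngr1*, *Ifngr2* and *Il10rb* were lower in *Pxr*+/+ control males (-0.44, -0.37 and -0.63), while *Ifnar1* and *Ifnar2* were not called (-0.18 and -0.28). Of 14 further sensor, adaptor and factor genes 8 were called lower, and of 6 inhibitor genes 3, among them *Socs1*, which blocks JAK kinases (-0.77). The kinase genes *Tyk2* and *Jak1* were lower in males (-0.43 and -0.31). Of 26 further type I targets 23 were called lower in *Pxr*+/+ control males (median -0.68), and of 16 further interferon gamma targets 15 (median -0.82). In *Pxr*-/- against *Pxr*+/+ control females the counts were 4 of 26 and 2 of 16, against 2.98% of all genes. Also called lower there were *Irf5*, which encodes a factor downstream of Toll-like receptors (-1.02, adjusted p = 0.00462, limma), *Tmem173*, which encodes the adaptor STING (-0.46), *Socs1* (-0.51), *Ifngr2* (-0.41) and *Tyk2* (-0.34), the kinase at the type I receptor. Most genes of these lists were not called. The counts were 2 of 14 sensor, adaptor and factor genes, 1 of 6 inhibitor genes and 1 of 6 receptor genes. The kinase genes *Jak1* and *Jak2* were not called (-0.19 and -0.18).

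Markers of immune cells moved with these genes in some comparisons and not in others. In *Pxr*+/+ control males 11 of 12 macrophage markers were called lower than in females (median -1.08), and 8 of 10 T and NK cell markers (median -1.02). The mean of the macrophage list, less that of all genes, ran from 1.56 to 2.06 in these males and from 2.33 to 3.25 in the females, and that of the T and NK list from -1.58 to -1.36 and from -1.09 to -0.64. Of 7 endothelial markers 4 were called lower in males (median -0.49) and of 8 hepatocyte markers 0 (median -0.09), where 29.9% of all genes were. Neutrophil markers had 2 of 6 called lower (median -0.82), B cell markers 1 of 4 (-0.43) and plasmacytoid dendritic cell markers 1 of 5 (-0.24). In *Pxr*-/- control females 8 of 12 macrophage markers were called lower than in *Pxr*+/+ females (median -0.95), 4 of 7 endothelial (-0.58), 2 of 6 neutrophil (-0.32) and 0 of 10 T and NK cell markers (-0.31), 0 of 4 B cell markers, 0 of 5 plasmacytoid dendritic cell markers and 0 of 8 hepatocyte markers. Of all genes, 2.98% were called lower in this comparison. The macrophage mean was 2.64 ± 0.33 (SD) in *Pxr*+/+ and 1.82 ± 0.14 in *Pxr*-/- control females. Between the sexes of *Pxr*-/- controls 5 of 12 macrophage markers (median -0.65) and 7 of 10 T and NK cell markers (-0.83) were called lower in males. Here 13.6% of all genes were. In *Pxr*+/+ ATB mice the counts were 6 of 12 (-0.75) and 8 of 10 (-0.92), against 9.03% of all genes. In *Pxr*-/- ATB mice, where 22 of the 33 genes and 23.2% of all genes were called lower in males, 0 of 12 macrophage markers were called (median -0.14). There 8 of 10 T and NK cell markers were called lower in males (median -0.73). With PXR deletion in control males all 12 macrophage markers had lower means (median -0.50, 0 called) and the 33 genes a median of 0.04. With ATB in *Pxr*+/+ males the same 12 had lower means (median -0.22, 0 called) and 31 of the 33 genes had higher ones. Across the 47 mice, with group means removed, the type I class had a correlation of 0.37 with the macrophage mean, 0.45 with the neutrophil mean, 0.06 with the T and NK mean and -0.45 with the hepatocyte mean. The interferon gamma-type class had 0.23, 0.25, 0.30 and -0.35 in the same order. All these means come from the same arrays. Beyond these values, the part of cell numbers in the differences of the interferon-stimulated genes was not tested.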

How the data were processed

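Liver RNA of 47 mice was labelled with Cy3 and hybridized to 1-color Agilent mouse arrays. The authors read the images with Agilent Feature Extraction 10.10.1.1, and the deposited scanner files give linear intensity values per spot. A second deposited table gives log2 values that the authors filtered, corrected for the washing bath and normalized with CrossNorm, and it served as an alternative.

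From the median intensity, log2 was taken, 422 flagged spot values were left out and spots of a probe were averaged (413 missing probe values were filled in, none of them in the 33 genes). A probe was kept if 5 or more arrays of any group had it well above background. The wash batch was removed and CrossNorm was run over 300 random stacks of 1 array per group. The authors' filter rule and stacking are not given in the sources used here. limma 3.58.1 in R 4.3.3 was fitted with group and wash batch, and calls needed an FDR of 0.05 and a fold change above 1.2. The fit was tested on simulated data. Groups came from the sample labels. Genes, classes, lists and tests were chosen with earlier results of these data known. All 33 genes are named, and other genes only from the lists. A gene of these lists is not reported here. Figures were drawn with matplotlib 3.10.9.

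Alternatives were quantile normalization, the processed signal less the 75th percentile, normexp (offset 50), the authors' values, other filters, slide or replicate number as a block, no wash batch, only the groups compared, all probes of a gene, and leaving out each mouse. The number of arrays limits the precision.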

Additional observations from a re-analysis of the deposited data

Results flagged for a closer look

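In 18 of 264 sets of a gene and a group (6.82%), 1 mouse lay far from the others of its group, by a gap to the nearest mouse that, as a share of the group's range, was above the 95% critical value of Dixon's test. Chance gives about 1 in 20. No explanation was tested for these values. Among *Pxr*+/+ control females this was the case for *Ifit3* in replicate 2 (10.5, above 9.89 to 10.04 in the others, gap 0.746), *Cxcl9* in replicate 4 (9.17, below 10 to 10.31 in the others, gap 0.725) and *Psmb9* in replicate 2 (12.32, above 11.34 to 11.68 in the others, gap 0.65). Among *Pxr*-/- ATB females this was the case for *Oasl1* in replicate 5 (10.33, below 10.94 to 11.17 in the others, gap 0.715). Among *Pxr*+/+ control males this was the case for *Ifi27l2a* in replicate 6 (10.54, below 10.96 to 11.12 in the others, gap 0.718), *Zbp1* in replicate 1 (6.9, below 7.18 to 7.29 in the others, gap 0.718) and *Iigp1* in replicate 3 (14.54, above 14.21 to 14.32 in the others, gap 0.674). Among *Pxr*-/- ATB males this was the case for *Bst2* in replicate 6 (12.86, below 13.14 to 13.29 in the others, gap 0.642), *Xaf1* in replicate 2 (7.55, below 8.1 to 8.43 in the others, gap 0.627) and *Irgm1* in replicate 6 (10.31, below 10.89 to 11.2 in the others, gap 0.649). Among *Pxr*+/+ ATB females this was the case for *Dhx58* in replicate 4 (8.11, below 8.33 to 8.4 in the others, gap 0.755) and *Irgm1* in replicate 3 (11.66, above 11.18 to 11.33 in the others, gap 0.671). Among *Pxr*-/- control females this was the case for *Zbp1* in replicate 1 (10.13, above 8.21 to 8.92 in the others, gap 0.631). Among *Pxr*+/+ ATB males this was the case for *Gbp3* in replicate 3 (7.43, below 8.07 to 8.4 in the others, gap 0.657), *Iigp1* in replicate 6 (14.71, above 14.48 to 14.53 in the others, gap 0.798) and *Irgm1* in replicate 5 (10.72, below 11.16 to 11.24 in the others, gap 0.836). Among *Pxr*-/- control males this was the case for *Psmb8* in replicate 2 (10.71, above 10.18 to 10.27 in the others, gap 0.834) and *Cxcl10* in replicate 4 (8.44, above 7.79 to 7.92 in the others, gap 0.794).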

How the results depend on the processing

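The direction of every called difference of a single gene in the sex comparison of *Pxr*+/+ controls and in the PXR comparison of control females was kept under all alternatives tried. In *Pxr*+/+ controls the number of genes called lower in males was 31 to 33 under all alternatives and 32 to 33 on leaving out 1 mouse. For PXR deletion in control females there were 7 calls, with 2.98% of all genes called lower. They became 1 with quantile normalization (0.626%), the processed signal (0.419%), normexp (0.635%) or no filter (1.72%). They became 2 with no wash batch (1.89%), 4 with the replicate block (2.63%) and 0 when only these groups were fitted (0.557%). The count was 6 with the authors' values (2.48%), 8 with probes well above background on all arrays (3.27%) and 9 with slide as a block (3.49%). Leaving out 1 mouse gave 0 to 18, and the share of all genes was not counted in those fits. For ATB in *Pxr*+/+ males, 1 gene (*Bst2*, lower) was called with quantile normalization, the processed signal, normexp or the authors' values, 2 (*Ifih1* and *Ddx60*, higher) when only these groups were fitted, and 0 to 1 on leaving out 1 mouse. For ATB in *Pxr*+/+ females, 1 gene (*Bst2*) was called with normexp or the authors' values, and 0 to 2 on leaving out 1 mouse. For ATB in *Pxr*-/- females, 1 gene (*Bst2*) was called with normexp. For the sex comparisons, *Pxr*-/- ATB mice had 10 calls with quantile normalization or the processed signal, 11 with normexp and 17 to 23 on leaving out 1 mouse, *Pxr*-/- controls had 14 when only these groups were fitted and 19 to 27 on leaving out 1 mouse, and *Pxr*+/+ ATB mice had 19 to 25. In the other comparisons 0 genes were called under each alternative. Same-numbered mice of different groups did not vary together (median correlation -0.05 over 161 pairs, and 0 of 47 arrays correlated best with their own number), so the numbers were not taken as pairs, and the replicate block changed only the count of the PXR comparison in control females by more than 1.5 times. Scaling moved the share of lower among all calls from 93.2% to 54.4% in *Pxr*+/+ controls with quantile normalization and from 93.4% to 58.1% for PXR deletion in control females. The cause of these shifts was not tested.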
